A study of Mus musculus with 6 samples.

Results

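Histone lysine methyltransferases, the writers of histone methylation, and histone lysine demethylases, its erasers, were followed across mouse embryonic stem cells with wild-type (WT) or R783H Trim71. The members are the protein-coding genes of the deposited count table whose symbols start with Kdm2 to Kdm8, Kmt2, Kmt5 or Setd, together with Ehmt1, Ehmt2, Suv39h1, Suv39h2, Nsd1, Nsd2, Nsd3 and Dot1l. Kdm1a, Kdm1b and Kdm5d were left out by the rule. It gave 41 genes of the 27179 identifiers in the table. Poly(A)-selected RNA was sequenced from 3 libraries (A, B and C) of cells labelled FLAG-Trim71 (R783H) and from 3 libraries of cells labelled FLAG-Trim71, called WT here. Both groups thus carry the FLAG tag on Trim71. Both are of the ES-E14TG2a background, an established male mouse line, and both were grown in 2i with LIF, where inhibitors of MEK and GSK3 and leukemia inhibitory factor hold the cells in a naive pluripotent state. Trim71 belongs to the TRIM-NHL proteins and binds RNA, and R783H is an amino-acid change in it that has been linked to hydrocephalus. The comparison asks which transcripts differ when that residue is changed. Whether the letters stand for clones, cultures or library preparations is not given in the sources used here, so the p-values measure only the spread between these libraries, which may be technical.

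Writers transfer methyl groups from S-adenosylmethionine to lysines of histone tails, mostly through a SET domain, whereas Dot1l uses a different fold to methylate a lysine in the histone core. The erasers followed here are oxygenases with a JmjC domain that need iron and 2-oxoglutarate. Methylation of H3K4 marks promoters and enhancers, that of H3K36 marks the bodies of transcribed genes, and that of H3K9 and H3K27 goes with silencing. In naive stem cells H3K9 methylation by Setdb1 keeps endogenous retroviruses silent, and the Kmt2 enzymes serve bivalent promoters and enhancers.

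All 12 naive stem cell markers passed the filter on low counts, and their summed level was 8113 to 8267 CPM (counts scaled to a common library total) in R783H and 8131 to 8236 CPM in WT. Within that sum 4 were called higher and 3 lower. The log2 fold changes were 0.31 for Fgf4, 0.30 for Dppa5a, 0.20 for Tbx3 and 0.17 for Tfcp2l1. They were -0.36 for Zfp42, -0.23 for Nanog and -0.21 for Pou5f1. The summed 8 fibroblast markers stood at 11.8 to 11.9 CPM in R783H and 10.8 to 11.8 CPM in WT, and the 7 endoderm markers at 10.3 to 11.1 against 5.18 to 7.62 CPM. The 6 mesoderm markers summed to 37.0 to 42.3 CPM in R783H and 63.2 to 67.5 CPM in WT, and the 5 neural markers to 14.2 to 17.6 against 10.3 to 11.3 CPM. Of those tested, 5 of 5 mesoderm markers were called lower and 2 of 5 endoderm markers higher. Of all tested genes, 30.9% were called lower and 33.5% higher. Eomes, at 32.9 CPM in R783H and 46.3 in WT, made up most of the mesoderm sum. Some called markers had few counts: Tal1 was at 0.20 CPM in R783H and 0.85 in WT, Mixl1 at 0.62 and 1.28, and Sox17 at 0.90 and 0.37. Of 4 tested fibroblast markers 1 was called higher and 1 lower, and of 3 neural markers 2 higher and 1 lower. The fibroblast markers called were Pdgfrb (0.30), at 9.39 CPM in R783H and 7.59 in WT, and Thy1 (-2.74). Thy1 was near the floor, at 0.067, 0.25 and 0.27 CPM in R783H A, B and C and a mean of 1.31 CPM in WT. Postn and Neurog2 had counts in R783H A alone. The part of these differences in what follows was not tested. In bulk RNA, fewer cells of a type and less RNA per cell cannot be told apart. Totals were 20894277 to 29079670 counts per library, higher in each R783H library than in any WT library. R783H B stood apart from R783H A and C, with a chi-square per degree of freedom of 11.3 and 12.4 against them where A and C gave 2.18. The level of Trim71 mRNA was 144 ± 12.8 CPM with R783H and 140.5 ± 16.4 CPM without it (SD, n = 3). A changed residue leaves the mRNA to be counted, so that level does not check the labels.

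Most members were higher in R783H, by modest amounts. Of 41 members, 40 were tested, and Kdm4d, a testis-enriched H3K9 demethylase, had at most 1 count in a library. By edgeR's quasi-likelihood test at an adjusted p under 0.05, 25 of the 40 were called higher and 6 lower. Of all 14199 tested genes, 33.5% were called higher and 30.9% lower, 64.5% in all. The members' median log2 fold change (R783H over WT) was 0.19, against 0.029 for all tested genes. CPM of the 2 groups did not overlap for 30 of the 40 members, where 68.1% of all tested genes showed no overlap. All R783H libraries were above all WT libraries for 23 of the 40 members, against 35% of all tested genes. A called rise of at least 1.5-fold was found in 5 of the 40 members, a share near the 15.1% of all tested genes. A called rise of at least 2-fold was found in 1 of the 40, Kmt2e, against 5.91% of all tested genes. Of 13 tested erasers 11 were called higher and 0 lower. The number of lower erasers in edgeR's test was also 0 at p under 0.05 without adjustment. DESeq2 and limma-voom each gave 0 as well, whereas without R783H B the number was 1, Kdm5b. Of 20 writers 12 were called higher and 4 lower.

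**Figure D1:**
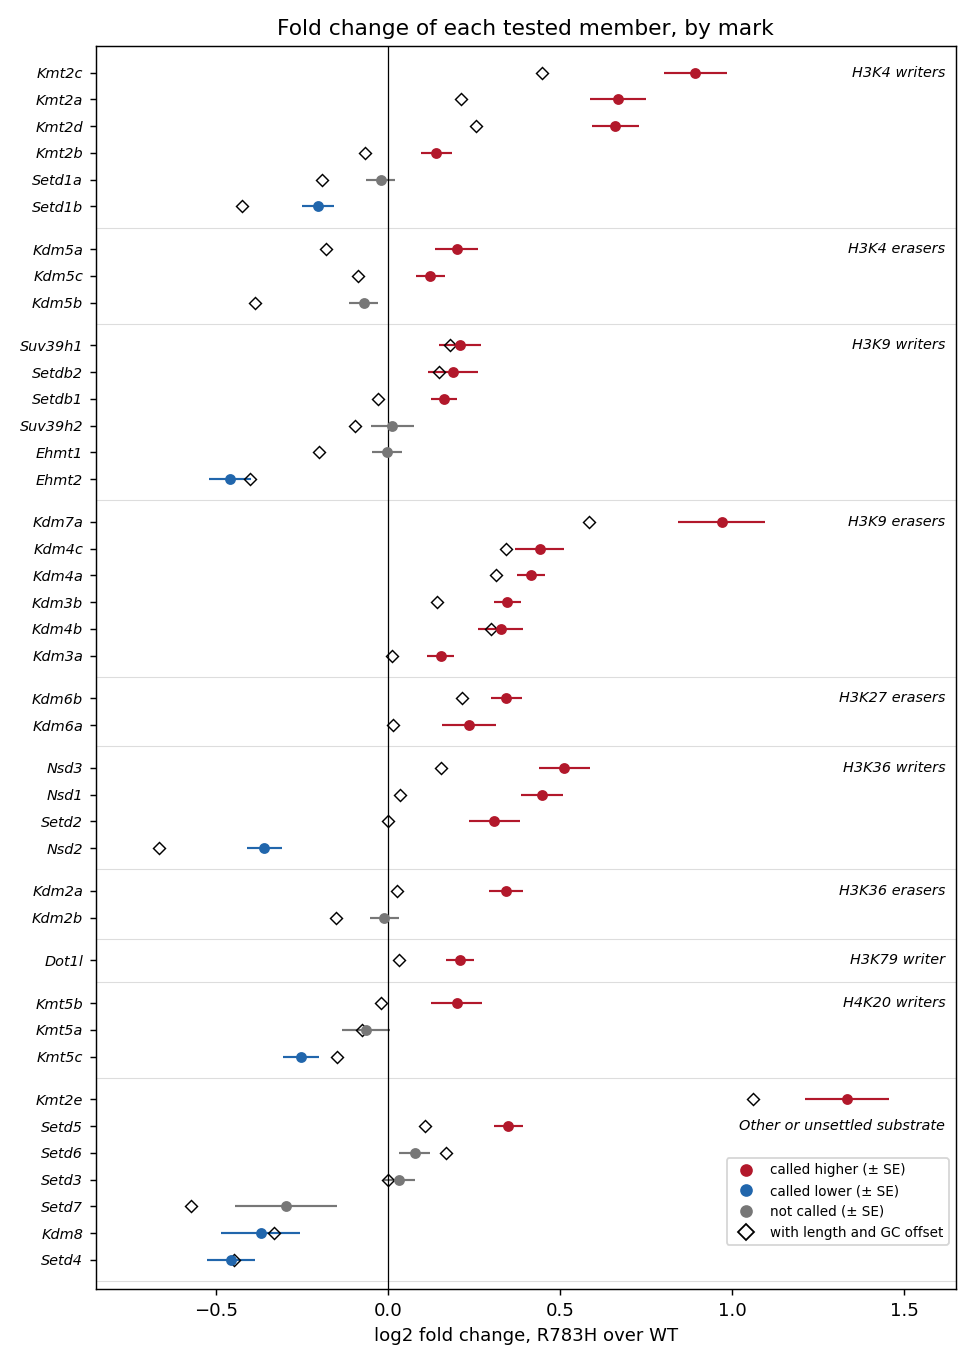
Log2 fold change (R783H over WT) of each of the 40 tested members, grouped by the mark it writes or erases. Filled points with bars are estimates ± SE, red where called higher, blue where called lower and grey where not called. Open diamonds are the estimates after an offset for transcript length and GC content. The 6 tested H3K9 erasers all lie to the right of 0, and Ehmt2 has the lowest of the filled points.

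Transcript length moved with these calls, and it is given first because it touches most of them. The median length of the tested members was 6406 nt, against 3364 nt for all tested genes, and 32 of the 40 were longer than that. Fold changes rose with length over the 13067 tested genes with a length (Spearman's rho 0.256) and over the 40 members (0.501). Genes are not independent replicates and share the 6 libraries, so both are descriptions. Above 7000 nt, 11 of 15 members (73.3%) were called higher and 2 lower, beside 60.5% and 12.9% of all 1180 tested genes of that length. Above 3500 and up to 7000 nt, 12 of 17 members (70.6%) were called higher and 1 lower, beside 40% and 25.4% of 4973 genes. Up to 3500 nt, 2 of 8 members were called higher and 3 lower, beside 24.8% and 39.9% of 6914 genes.

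When an offset for transcript length and GC content was fitted for each library, the members' median fell to 0.0053. With the offset 14 members were called higher and 12 lower, beside 31.2% and 37.5% of the 13067 genes. Of the 25 members called higher without it, 13 were again called higher, 11 were not called and 1, Kdm5a, was called lower. The 6 called lower were again called lower. Erasers were then called higher in 6 and lower in 3 of 13, and writers higher in 5 and lower in 6 of 20. The offset removes any trend with length, whether it comes from the libraries or from the cells, and which of these it is was not tested. Values with the offset are therefore given beside the members whose call or direction it changed, and beside others it moved. Exon sequence is shared with another annotated gene by 17 members, and some of these partners are named with their own change.

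**Figure D2:**
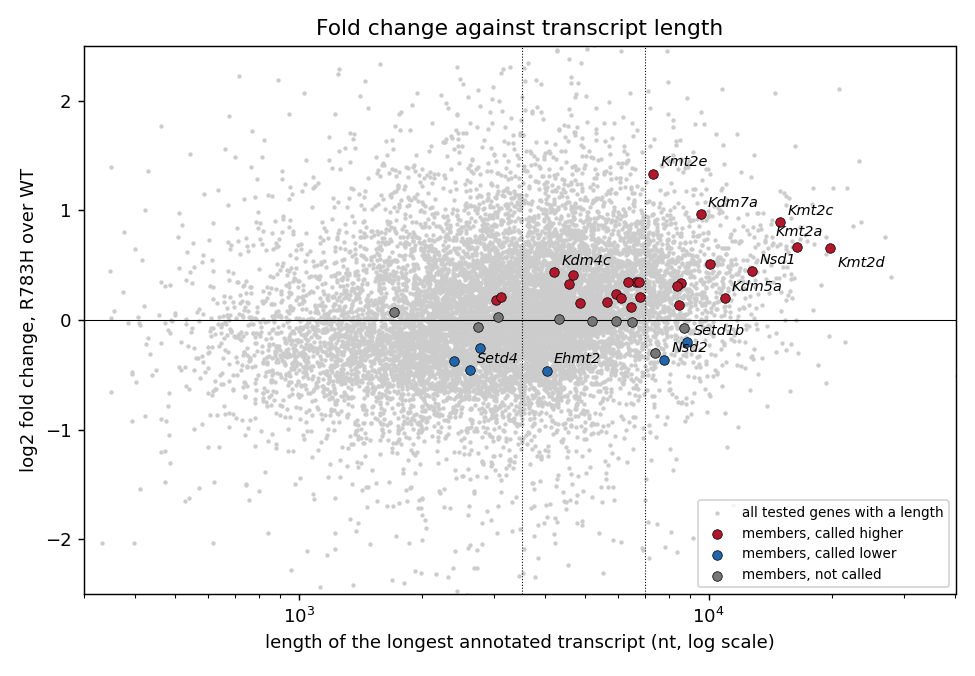
Log2 fold change (R783H over WT) against the length of the longest annotated transcript (nt, log scale), with all tested genes in grey and the 40 members coloured by call. Dotted lines stand at 3500 and 7000 nt. 40 genes lie beyond a log2 fold change of 2.5 in either direction and 14 outside the length axis. Members above 7000 nt lie mostly above 0, with Nsd2 and Setd1b called lower among them.

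Among the H3K4 writers Kmt2a, Kmt2c and Kmt2d rose most, Kmt2b rose little, and neither Setd1a nor Setd1b was called higher. Kmt2c and Kmt2d encode the enzymes that deposit monomethylation at enhancers. Kmt2c was at 108, 88.3 and 113 CPM in R783H A, B and C and 51.7, 53.8 and 61.2 CPM in WT A, B and C. Every R783H library was above every WT library, with R783H B the lowest of its group, and it rose by 0.89 (SE 0.09) on the log2 scale (adjusted p 7.65e-06). Kmt2d was at 237, 208 and 242 CPM in R783H A, B and C and 136, 141 and 157 CPM in WT A, B and C. It showed the same order of groups without overlap, and rose by 0.66 (SE 0.07), adjusted p 8.59e-06. Kmt2a, the MLL1 enzyme of Hox gene promoters, was at 133, 110.4 and 143 CPM in R783H A, B and C and 77.8, 81.7 and 83.6 CPM in WT A, B and C. The groups were again apart, the rise was 0.67 (SE 0.08) with an adjusted p of 2.98e-05, and R783H B was the closest to WT. With the length and GC offset these increases were smaller, 0.45 for Kmt2c, 0.26 for Kmt2d and 0.21 for Kmt2a, and all 3 were again called higher.

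Kmt2b, which serves bivalent promoters, rose by 0.14 (SE 0.04) from 197 ± 4.35 to 218 ± 8.39 CPM (SD, n = 3), adjusted p 0.0157. Its call was lost without WT B, without WT C and with DESeq2, and with the offset it was -0.066 and not called. Setd1a, the highest of the H3K4 writers per kb of transcript (33.8 CPM per kb), is needed for the growth of stem cells. It was at 217, 219.7 and 217 CPM in R783H A, B and C and 229, 220.5 and 214 CPM in WT A, B and C. The groups overlapped, and the log2 fold change of -0.021 (SE 0.04) was not called (adjusted p 0.673). Setd1b, its paralogue in the same kind of complex, fell from 69.5 ± 1.27 CPM in WT to 60.4 ± 1.56 in R783H (SD, n = 3), or -0.20 (SE 0.05) in log2 fold change with an adjusted p of 0.00272. With the offset Setd1a was -0.19 and called lower, and Setd1b was -0.42.

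The erasers of H3K4 di- and trimethylation are the Kdm5 enzymes, and their levels changed by small amounts. Kdm5c, an X-linked gene and the highest of the 3 per kb (60.6 CPM per kb), was at 397, 427 and 399 CPM in R783H A, B and C and 377, 377 and 369 CPM in WT A, B and C. All R783H values were above all WT values, by a small margin. It rose by 0.12 (SE 0.04) (adjusted p 0.0259), and the call was lost when any of the 6 libraries was left out (log2 fold changes of 0.065 to 0.13), with RLE factors and with DESeq2. With the offset the direction turned, to -0.087, and it was not called. Kdm5a rose by 0.20 (SE 0.06) with overlap between the groups (adjusted p 0.0157). It was not called without R783H A, R783H C, WT A or WT B, and with the offset it was -0.18 and called lower. Kdm5b, an abundant eraser in stem cells, was at 438 ± 15.3 CPM in R783H against 460.4 ± 10.02 in WT (SD, n = 3), a change of -0.071 (SE 0.04) that was not called (adjusted p 0.164) although the groups did not overlap. Without R783H B it was called lower at -0.11, and with the offset at -0.39. The Y-linked relative Kdm5d, no member, was at 4.66 ± 0.449 CPM in R783H against 1.05 ± 0.4004 in WT (SD, n = 3). No stretch of Kdm5c at 98% identity or more over at least 100 nt was found in another annotated transcript.

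**Figure D3:**
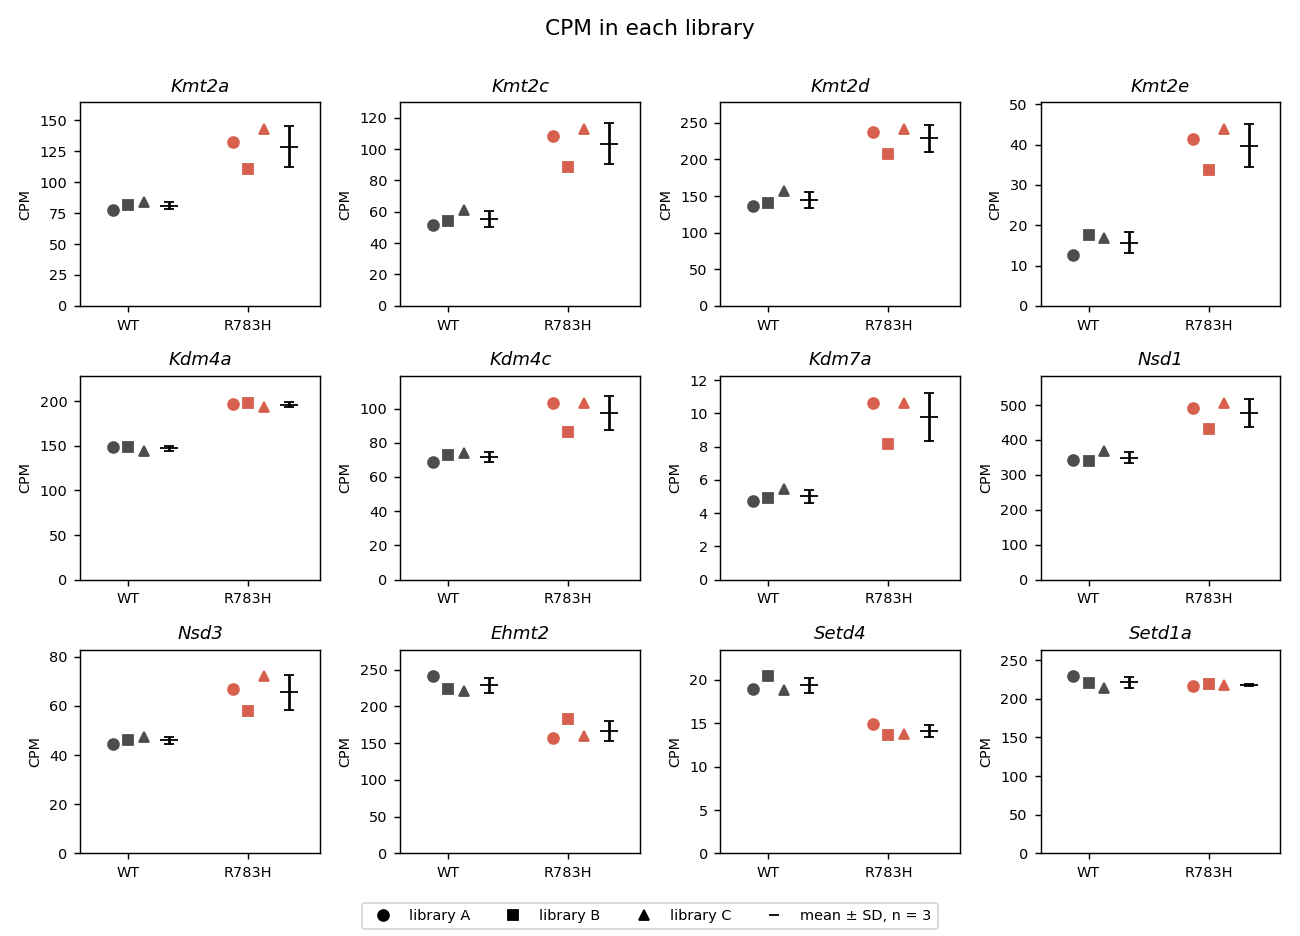
CPM of 12 members in each library, with circles, squares and triangles for libraries A, B and C and bars for the mean ± SD of 3 libraries. The Kmt2, Kdm4, Kdm7a and Nsd panels show all R783H libraries above all WT libraries, with the R783H B square lowest of its group in all of these but Kdm4a. Ehmt2 and Setd4 show the reverse order of the groups, and Setd1a overlaps.

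Among the H3K9 enzymes the tested erasers rose together and the writers were mixed. All 6 tested erasers were called higher and their groups did not overlap, and 5 of them were called higher with the length and GC offset. Of the 6 writers 3 were called higher and 1 lower. Of all tested genes, 33.5% were called higher and 30.9% lower, and 35% had all R783H libraries above all WT libraries. With the offset 31.2% of the genes in that fit were called higher. The median log2 fold change was 0.38 for these erasers and 0.09 for the 6 writers, whose transcripts had similar median lengths of 4758 and 4176.5 nt. Kdm3a, the highest H3K9 eraser per kb (58.3 CPM per kb), removes mono- and dimethylation and is known in spermatogenesis. It was at 298, 294 and 301 CPM in R783H A, B and C and 269, 266 and 269 CPM in WT A, B and C. Each group was tight and the rise small, 0.15 (SE 0.04) (adjusted p 0.00444), and with the offset it was 0.012 and not called. Kdm3b, its paralogue, rose by 0.35 (SE 0.04) from 274 ± 5.43 to 348 ± 4.53 CPM (SD, n = 3), and by 0.14 with the offset.

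The Kdm4 enzymes remove trimethylation from H3K9 and H3K36. Kdm4a was at 197, 198 and 193 CPM in R783H A, B and C and 149, 148 and 144 CPM in WT A, B and C. All 3 R783H libraries lay within a few CPM of each other and well above WT, and the rise was 0.41 (SE 0.04) with an adjusted p of 5.35e-06. Kdm4c, known to support self-renewal of stem cells, was at 103, 86.2 and 103 CPM in R783H A, B and C and 68.5, 73.0 and 74.0 CPM in WT A, B and C. R783H B was again the lowest of its group but above WT, and the rise was 0.44 (SE 0.07), adjusted p 2.30e-04. Kdm4b rose by 0.33 (SE 0.07) (adjusted p 0.00117), from 77.7 ± 5.25 to 97.4 ± 7.39 CPM (SD, n = 3), and in this gene R783H B was the highest of the group. With the offset the 3 genes were at 0.31, 0.34 and 0.30, all called higher.

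Kdm7a, which erases H3K9 and H3K27 dimethylation, was the eraser with the largest increase, and the lowest of the tested erasers per kb (0.775 CPM per kb). Its counts were 320, 231 and 315 in the R783H libraries A to C, and 95, 120 and 116 in those of WT, which gave 10.6, 8.14 and 10.6 CPM in R783H A, B and C and 4.70, 4.89 and 5.44 CPM in WT A, B and C. R783H A and C lay at about the same level and R783H B below them, still above WT. It rose by 0.97 (SE 0.13) on the log2 scale, adjusted p 5.07e-05, and 0.58 with the offset. Its transcript shares 174 nt with an annotated antisense gene.

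The writer that fell was Ehmt2. Ehmt2 (G9a) and Ehmt1 (GLP) form the heterodimer that writes H3K9 dimethylation, in which each needs the other for stable activity. Ehmt2 was at 158, 183 and 159 CPM in R783H A, B and C and 241, 224 and 222 CPM in WT A, B and C. Every R783H library was below every WT library, R783H B the least so. The log2 fold change of -0.46 (SE 0.06) had an adjusted p of 5.45e-05, and over 17 alternatives it ran from -0.55 to -0.38 and was called lower in each. Ehmt1 stood at 107, 107 and 105 CPM in R783H A, B and C and 105, 105 and 111 CPM in WT A, B and C. These groups overlapped, and its log2 fold change of -0.004 (SE 0.04) was not called (adjusted p 0.945). With the offset Ehmt1 was -0.20 and called lower.

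Setdb1, the enzyme that silences endogenous retroviruses with Trim28, was the highest H3K9 writer per kb (54.1 CPM per kb). It was at 323, 319 and 327 CPM in R783H A, B and C and 289.6, 291 and 285 CPM in WT A, B and C. The groups were apart by a small margin, the rise was 0.16 (SE 0.04) (adjusted p 0.00316), and with the offset it was -0.031 and not called. Setdb1 shares exon sequence with Cers2 on the opposite strand, which rose by 0.29 (SE 0.04). Suv39h1, a trimethylase of pericentromeric heterochromatin, rose by 0.21 (SE 0.06) from 24.1 ± 0.998 to 27.8 ± 0.895 CPM (SD, n = 3; adjusted p 0.0106). Its call was lost without R783H A, without WT B and with DESeq2, and held with the offset at 0.18. Its paralogue Suv39h2 was at 38.7 ± 1.55 and 38.4 ± 2.62 CPM (SD, n = 3), a change of 0.012 (SE 0.06) that was not called, and -0.097 with the offset, also not called. It shares 149 nt with Dclre1c, which rose by 0.33 (SE 0.08). Setdb2 rose by 0.19 (SE 0.07) (adjusted p 0.0402), and that call held without R783H B but not when any other library was left out. It was also lost with RLE factors, with DESeq2 and with the offset, where the value was 0.15.

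Promoter windows are shown for the writer and the eraser with the largest increases among members with a window, Kmt2c and Kdm7a, and for the pair Ehmt2 and Ehmt1, of which one fell and the other was not called. Each is the 250 bases before an annotated start from RefSeq on GRCm38.p6, 5′ to 3′ on the gene's strand, with capitals marking the GC box GGGCGG on either strand. For Kmt2c, Ehmt2 and Ehmt1 the annotated gene bounds reach into the window.
Kmt2c, chr5:25498784-25499033, minus strand: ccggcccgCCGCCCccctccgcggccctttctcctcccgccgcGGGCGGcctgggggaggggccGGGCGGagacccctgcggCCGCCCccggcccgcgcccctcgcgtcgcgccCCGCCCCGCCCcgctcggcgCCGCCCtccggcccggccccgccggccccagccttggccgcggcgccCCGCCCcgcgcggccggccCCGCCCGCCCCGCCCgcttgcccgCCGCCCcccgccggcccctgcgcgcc
Kdm7a, chr6:39206774-39207023, minus strand: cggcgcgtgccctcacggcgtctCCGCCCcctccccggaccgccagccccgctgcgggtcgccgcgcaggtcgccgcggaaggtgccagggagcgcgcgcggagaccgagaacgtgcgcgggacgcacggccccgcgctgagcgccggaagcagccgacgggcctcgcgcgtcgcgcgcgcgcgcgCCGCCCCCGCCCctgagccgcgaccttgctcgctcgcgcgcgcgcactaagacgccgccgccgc
Ehmt2, chr17:34898224-34898473, plus strand: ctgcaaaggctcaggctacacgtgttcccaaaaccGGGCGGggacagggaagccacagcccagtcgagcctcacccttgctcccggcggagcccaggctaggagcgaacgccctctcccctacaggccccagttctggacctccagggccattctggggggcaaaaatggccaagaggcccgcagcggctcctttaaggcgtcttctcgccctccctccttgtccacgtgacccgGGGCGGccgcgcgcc
Ehmt1, chr2:24919610-24919859, minus strand: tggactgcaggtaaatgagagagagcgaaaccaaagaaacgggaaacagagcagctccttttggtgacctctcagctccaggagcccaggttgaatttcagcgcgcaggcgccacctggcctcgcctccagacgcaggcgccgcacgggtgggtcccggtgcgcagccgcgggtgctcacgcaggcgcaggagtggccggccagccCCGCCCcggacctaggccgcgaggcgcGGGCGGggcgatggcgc
The Kmt2c window holds 12 GC boxes and is 91.6% G or C, and the Kdm7a window holds 3 and 56 CpG dinucleotides. Ehmt2 and Ehmt1 hold 2 boxes each, with 18 and 26 CpG. Windows matched for 30 of the 41 members. A GC box was in 20 of these (66.7%), against 33% of 27025 genes with a window. The ETS core CCGGAAG was in 6 (20%, against 7.07%), the CCAAT box in 12 (40%, against 34.5%) and the CRE letters TGACGTC in 2 (6.67%, against 2.86%). The YY1 core CCATCTT was in 1 (3.33%, against 4.51%). The TATA box letters TATAAA were in 0 of the 30, against 13% of all. All were searched in the same 250 bases on both strands, and no position of one motif was required to be free of another. The median ratio of observed to expected CpG was 0.836 in member windows and 0.379 in all windows, which include genes that are silent in these cells. Ehmt2, which fell, and Kmt2c, which rose, both hold GC boxes. A match describes letters and shows no binding.

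Kdm6a and Kdm6b, which erase H3K27 methylation and were classed by it, both rose. Kdm7a, which also acts on H3K27, was counted with the H3K9 erasers. Kdm6b, the JMJD3 enzyme and the higher of the 2 per kb (16.1 CPM per kb), was at 119, 122 and 119.8 CPM in R783H A, B and C and 91.8, 94.4 and 97.9 CPM in WT A, B and C. The groups did not overlap and the rise was 0.34 (SE 0.04), adjusted p 4.37e-05, with 0.21 and a call with the offset. Kdm6a, the X-linked UTX enzyme that works with Kmt2c and Kmt2d, rose by 0.23 (SE 0.08) (adjusted p 0.0198), but R783H B, at 58.0 CPM, fell inside the WT range. Its call was lost without R783H A, R783H C or WT A, and with the offset it was 0.016 and not called. Uty, its Y-linked relative and no member, rose by 0.38 (SE 0.11).

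The H3K36 writers moved in opposite directions. Nsd1, a dimethylase and the highest of the class per kb (32.3 CPM per kb), was at 491, 431 and 507 CPM in R783H A, B and C and 343, 339 and 368 CPM in WT A, B and C. R783H A and C were close together and R783H B lower, all above WT, and the rise was 0.45 (SE 0.06) with an adjusted p of 6.99e-05. Nsd3 was at 66.8, 58.0 and 72.0 CPM in R783H A, B and C and 44.4, 46.3 and 47.2 CPM in WT A, B and C. It showed the same pattern at a lower level and rose by 0.51 (SE 0.07), adjusted p 1.05e-04. Nsd2, the third enzyme of the family, fell from 68.7 ± 1.95 CPM in WT to 53.6 ± 1.92 in R783H (SD, n = 3) without overlap, a log2 fold change of -0.36 (SE 0.05) with an adjusted p of 7.92e-05. Nsd2 shares exon sequence with Nelfa on the opposite strand, which fell by 0.46 (SE 0.05), and whether the counting used strand is not given in the sources used here. Setd2, the trimethylase that travels with RNA polymerase II, rose by 0.31 (SE 0.07) (adjusted p 0.0035). With the offset Nsd3 was 0.15 and called higher, Nsd2 -0.67 and called lower, while Nsd1 at 0.034 and Setd2 at -0.0013 were not called.

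Of the H3K36 erasers, Kdm2a rose from 131 ± 4.18 to 166 ± 8.30 CPM (SD, n = 3), by 0.34 (SE 0.05) with an adjusted p of 1.06e-04. With the offset that was 0.026 and no call. Kdm2b, which brings a variant Polycomb complex to CpG islands, was the higher of the 2 per kb (32.1 CPM per kb), at 162, 173 and 161 CPM in R783H A, B and C and 168, 166 and 166 CPM in WT A, B and C. The groups overlapped and the change of -0.011 (SE 0.04) was not called (adjusted p 0.845). With the offset it was -0.15 and called lower. Kdm2b shares 627 nt of transcript with Rnf34.

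Dot1l, the writer of H3K79 methylation, was at 149, 145 and 149 CPM in R783H A, B and C and 129, 128 and 126 CPM in WT A, B and C. Its groups were tight and apart, and the rise was 0.21 (SE 0.04) (adjusted p 9.21e-04), but 0.033 and not called with the offset. Among the H4K20 writers, Kmt5a, the monomethylase needed for mitosis and the highest of its class per kb (37.6 CPM per kb), was at 103, 89.3 and 110.1 CPM in R783H A, B and C and 101.2, 109 and 106 CPM in WT A, B and C. WT values lay within the R783H range, and the change of -0.064 (SE 0.07) was not called (adjusted p 0.442). The di- and trimethylases Kmt5b and Kmt5c were called in opposite directions. Kmt5c fell from 95.8 ± 4.32 CPM in WT to 80.3 ± 3.46 in R783H (SD, n = 3), or -0.25 (SE 0.05) in log2 fold change with an adjusted p of 0.00132 and -0.15 with the offset. Kmt5b rose by 0.20 (SE 0.07) with overlap (adjusted p 0.0333). Its call held without R783H B but not when any other library was left out, and was lost with DESeq2 and with the offset (-0.022).

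Members not classed by mark, whose histone substrate is mostly absent or unsettled, held the largest rise of all, in Kmt2e, and the second largest fall, in Setd4. Kmt2e is a relative of the MLL enzymes that is not known to methylate histones. It was at 41.5, 33.7 and 43.9 CPM in R783H A, B and C and 12.7, 17.6 and 16.8 CPM in WT A, B and C. No R783H library came near the WT range, and the log2 fold change of 1.34 (SE 0.12) (adjusted p 3.38e-06) was the largest of all members, with 1.06 under the offset. Its transcript shares 972 nt with Srpk2 on the opposite strand, which rose by 0.52 (SE 0.06). Setd5, the most abundant member per kb (72.5 CPM per kb), was at 554, 529 and 564 CPM in R783H A, B and C and 418, 433 and 442 CPM in WT A, B and C. The groups were apart, and the rise was 0.35 (SE 0.04), adjusted p 3.13e-05, but 0.11 with the offset, where it was still called.

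Setd4 was at 14.9, 13.7 and 13.8 CPM in R783H A, B and C and 19.0, 20.4 and 18.8 CPM in WT A, B and C. Its groups did not overlap, and it fell by 0.46 (SE 0.07) on the log2 scale (adjusted p 1.83e-04). Kdm8, a JmjC enzyme with debated histone activity, fell from 8.25 ± 0.954 CPM in WT to 6.36 ± 0.602 in R783H (SD, n = 3), or -0.37 (SE 0.11) in log2 fold change (adjusted p 0.0139). It was not called without WT A. Setd7, which methylates H3K4 and non-histone proteins, was not classed with the H3K4 writers. Its counts were 151, 132 and 203 in the R783H libraries A to C, and 146, 149 and 151 in those of WT. Its change of -0.30 (SE 0.15) was not called (adjusted p 0.102), with R783H C apart from A and B, and without R783H C it was -0.49 and called lower. With the offset it was -0.57 and called lower too. Setd3, an actin histidine methyltransferase, had a log2 fold change of 0.032 (SE 0.05) and Setd6, which acts on RelA, of 0.078 (SE 0.05), and neither was called. With the offset Setd6 was called higher at 0.17, and Setd3 was -0.0012 and not called.

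Summed over the tested members classed to each mark, mRNA per kb of transcript gave a ratio of writers to erasers within each library. That ratio needs no scaling between libraries. Enzymes that are not members, such as the H3K9 demethylase Hr, are not in the sums, nor is Setd7, which was not classed by mark. For H3K9 the ratio was 0.686, 0.714 and 0.677 in R783H A, B and C and 0.916, 0.898 and 0.893 in WT A, B and C. All R783H libraries were below all WT libraries. The sums behind it were 141 ± 2.55 CPM per kb in R783H and 148 ± 2.38 CPM per kb in WT (SD, n = 3) for writers and 204 ± 2.02 CPM per kb in R783H and 164 ± 0.484 CPM per kb in WT (SD, n = 3) for erasers. For H3K4 the ratio was 0.736, 0.690 and 0.728 in R783H and 0.661, 0.655 and 0.646 in WT, all R783H libraries higher. For H3K36 it was 1.467, 1.256 and 1.496 against 1.18, 1.23 and 1.26, and R783H B lay within the WT range. Enzymes that act on more than 1 mark were placed in 1 class, so the H3K36 erasers here are Kdm2a and Kdm2b. With Kdm4a, Kdm4b and Kdm4c added to them, an alternative chosen after seeing the data, the ratio was 0.544, 0.471 and 0.555 in R783H and 0.492, 0.510 and 0.538 in WT, and R783H B was the lowest of all 6. The sums weight each gene by its abundance and were not tested, since the members were chosen with earlier results known. The H3K9 classes had similar median lengths, but their tested erasers ran from 4196 to 9566 nt and their writers from 3034 to 5953 nt. The median length was 11912 nt for the H3K4 writers and 8714 nt for their erasers.

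**Figure D4:**
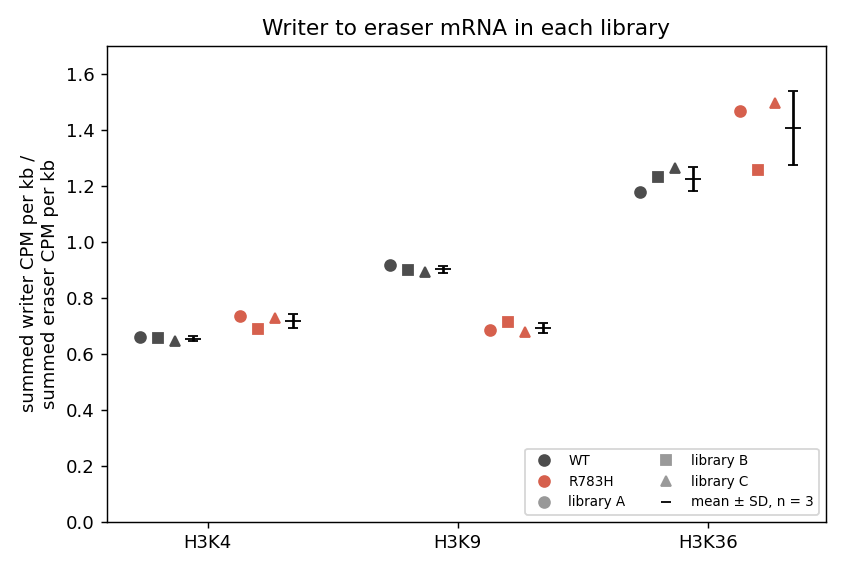
Summed CPM per kb of the members classed as writers of a mark divided by that of the members classed as its erasers, in each library. The marks are H3K4, H3K9 and H3K36. Symbols stand for libraries A, B and C, grey for WT and red for R783H, and bars for the mean ± SD of 3 libraries. The R783H points lie below the WT points for H3K9 and above them for H3K4, and for H3K36 R783H B lies among the WT points.

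Ratios of read counts between relatives in the same library show the same unevenness. Nsd1 counts were 9.07, 8.38 and 9.19 times those of Nsd2 in R783H A, B and C, and 5.10, 4.77 and 5.40 times in WT. For Ehmt1 over Ehmt2 the count ratio was 0.680, 0.588 and 0.661 in R783H and 0.435, 0.468 and 0.500 in WT. For Kmt2a over Kmt2b it was 0.622, 0.486 and 0.674 against 0.385, 0.417 and 0.431. Of 12 such pairs, 9 had no overlap between the groups, where 68.1% of all tested genes taken singly had none. The share among other pairs of genes was not computed. The longer transcript gained in 6 of these 9, and the shorter in 3. Those 3 were Kmt2c over Kmt2d, with a mean count ratio of 0.450 in R783H and 0.384 in WT, Setd1a over Setd1b, with 3.61 and 3.18, and Kdm5b over Kdm5c, with 1.08 and 1.23. Kdm4a over Kdm4c, 2 transcripts of similar length, had a mean of 2.03 in R783H and 2.05 in WT and overlapped, as did Kdm6a over Kdm6b and Suv39h1 over Suv39h2. These ratios are of counts, so a level is compared between groups and not between genes.

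Within R783H, library B was the lowest for 26 of 40 members (65%), against 40.8% of all tested genes. On the log2 scale R783H B lay -0.39 from the mean of A and C for Kdm7a, -0.34 for Kmt2e and -0.32 for Kmt2c, but 0.20 for Ehmt2. This offset of B followed GC content over the 40 members (Pearson's r 0.647) and length (-0.409), and also the fold change itself (-0.530). The trend with length was not particular to the members, at -0.412 over 9952 tested genes with a mean CPM over 5. These are descriptions over genes that share the same libraries, without a test. Without R783H B, 24 members were called higher and 7 lower, beside 34.7% and 34.3% of all tested genes.

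Partners of these enzymes, from 7 lists, moved in both directions. Of 76 genes, all tested, 29 were called higher and 29 lower (33.5% and 30.9% of all tested genes), with a median of -0.0052. With the length and GC offset 16 were called higher and 39 lower, beside 31.2% and 37.5% of all genes in that fit. The subunits of the COMPASS complexes, which hold the Kmt2 and Setd1 enzymes, were called lower in 8 of 15 and higher in 4. Bod1l rose by 0.58 (SE 0.11) and Dpy30, a core subunit, fell by 0.54 (SE 0.04). The H3K9 partners were called higher in 5 of 15 and lower in 5. Trim28, which recruits Setdb1, changed most, at 1862, 2039 and 1842 CPM in R783H A, B and C and 3758, 3495 and 3268 CPM in WT A, B and C. The groups were far apart, with a log2 fold change of -0.87 (SE 0.06), and Cbx1, an HP1 protein that reads H3K9 methylation, fell by 0.57 (SE 0.05).

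Other JmjC genes were called higher in 4 of 9 and lower in 4, with Hr, the Hairless H3K9 demethylase, at -1.45 (SE 0.13) and Riox2, a ribosomal oxygenase, at -0.74 (SE 0.07). Other SET-domain genes were higher in 6 of 15 and lower in 3, with Mecom at 1.18 (SE 0.22) and Prdm16 at 0.52 (SE 0.12). Of 6 Dot1l partners 4 rose and 1 fell, with Aff1 at 0.84 (SE 0.04) and Mllt3 at 0.60 (SE 0.07). In the Kdm2b complex 4 of 9 rose and 5 fell, with Pcgf1 at 0.95 (SE 0.08) and Skp1 at -0.58 (SE 0.04). For the supply of S-adenosylmethionine 2 of 7 rose and 3 fell. Mat2a, the enzyme that makes this methyl donor, was at 296, 281 and 280.3 CPM in R783H A, B and C and 515, 516 and 518 CPM in WT A, B and C. Its groups were far apart and the log2 fold change was -0.85 (SE 0.04), and Mtr, methionine synthase, was at 0.54 (SE 0.04). These adjusted p values ran from 5.63e-08 to 0.00285 by edgeR's quasi-likelihood test.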

How the data were processed

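The deposited table holds whole-number read counts per gene for 6 RNA-seq libraries, identified by Entrez ID and used as deposited. CASAVA 1.4, HISAT2, SAMtools and the mm10 build are named, without a role, in the submitters' processing notes. The counting tool, annotation and strand setting are not given in the sources used here. Of 27179 identifiers, 1904 matched no symbol. The members and gene lists were chosen with earlier results of these data known. Every member is named. Values in every library are given for called members with an absolute log2 fold change of at least 0.4 and for the highest member of each mark class per kb, and each partner list is represented by its 2 largest called changes.

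Counts were tested with edgeR 4.0.16 in R 4.3.3 (quasi-likelihood, TMM factors, filterByExpr with a minimum count of 10) over 14199 genes, with Benjamini-Hochberg adjustment and a threshold of 0.05. SE is the absolute log2 fold change divided by the square root of F. CPM used TMM-scaled totals. At these depths 3 counts are 0.103 to 0.144 CPM, a limit from counting error only. Lengths and GC content are of GENCODE M21 transcripts, found for 92% of tested genes. The offset used splines with 5 degrees of freedom. DESeq2 1.42.0 and limma 3.58.1 gave alternatives, and BLAST 2.17.0 found shared transcript sequence. Tests on simulated counts recovered 88 of 100 genes changed 2-fold and 77 of 100 changed 1.5-fold among 14199. Only those genes were changed there, and 18 unchanged genes were called. In the data 64.5% of tested genes were called, so these rates may not carry over. A simulated trend with length alone gave 7041 calls among 13067 genes without the offset and 0 with it. That trend was linear in log2 length, which the splines can fit, and no gene was changed beside it. It therefore cannot show what the offset does to true changes in long genes. No genomic position was converted between builds. A neural marker of the fixed list is not reported here and stays out of that list's sum.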

Additional observations from a re-analysis of the deposited data

How the results depend on the processing

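Under all 17 alternatives 12 members were called higher (Kmt2e, Kdm7a, Kmt2c, Kmt2a, Kmt2d, Nsd3, Kdm4a, Kdm4b, Kdm4c, Kdm3b, Kdm6b and Setd5) and 5 lower (Ehmt2, Setd4, Nsd2, Kmt5c and Setd1b). The share of all tested genes called the same way under every alternative was not computed, so these counts have no base to be read against. The members' median log2 fold change was 0.28 by library size alone, 0.0053 with the length and GC offset and 0.0056 with that offset and the replicate block. Leaving out a library gave 0.14 (without R783H A) to 0.18 (without R783H B). The offset gave 14 members higher and 12 lower (15 and 12 with the block), 6 erasers higher and 3 lower (6 and 3), 5 writers higher and 6 lower (6 and 6), and 16 partner genes higher (17). DESeq2 gave 20 members and 8 writers higher, beside 29.1% of all tested genes. Leaving out a library gave 19 to 24 members higher and 5 to 7 lower, 8 to 10 erasers higher and 0 to 1 lower, and 8 to 12 writers higher. All tested genes gave 8161 (without WT B) to 9882 calls (without R783H B), with 29.2% to 34.7% called higher and 27% to 34.3% lower. The causes were not tested.

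Signs turned in some alternative for 13 members, of which 6 had been called: Setd2 (0.31), Kdm5a (0.20), Kmt5b (0.20), Setdb1 (0.16), Kmt2b (0.14) and Kdm5c (0.12), all with the offset. With RLE factors and with DESeq2 Suv39h2 was -0.0099. With upper-quartile factors Kdm2b was 0.00077 and Ehmt1 0.0074. By library size alone Kdm2b was 0.0706, Kdm5b 0.0106, Setd1a 0.0600, Ehmt1 0.0773 and Kmt5a 0.0180. Ehmt1 was 0.0012 with no filter and 0.0031 under the stricter minimum of 10 counts per library. With the offset Setd2 was -0.0013, Kdm5a -0.18, Kdm5c -0.0873, Kmt2b -0.0663, Setdb1 -0.0306, Suv39h2 -0.10, Kmt5b -0.0217 and Setd3 -0.0012. With the offset and the block these were -0.0022, -0.18, -0.0880, -0.0667, -0.0303, -0.10, -0.0260 and -0.00046. Leaving out a library turned the sign of 4 members. Setd1a was -0.0499 without R783H B but 0.0014 without WT A, and Ehmt1 was -0.0315 without R783H B but 0.0205 without WT C. Suv39h2 was -0.0344 without WT A but 0.0612 without WT C, and Setd3 was -0.00092 without R783H A but 0.0564 without WT B. Each pair gives the lowest and the highest value.

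Deviations from the group means showed no pairing of libraries by replicate letter, but with 3 libraries per group they cannot exclude one. Deviations of same-letter libraries correlated at -0.07 (A), 0.0068 (B) and 0.09 (C), and not every library correlated best with its own letter. With the replicate block 9260 genes were called, with 25 members higher and 7 lower, beside 34.1% and 31.1% of all tested genes. Setd7 was the added call, at -0.31 with an adjusted p of 0.0396. The log2 of the H3K36 writer to eraser ratio, R783H over WT, was 0.20, and 0.026 with Kdm4a to Kdm4c among the erasers, a choice made after seeing the data.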
